A study of Homo sapiens with 6 samples.

Results

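The comparison described here set 2 of the 6 arrays of the series directly against each other: the array of THP-1 cells transfected with a mimic of miR-130a-3p and the array of cells transfected with a mimic of miR-151a-3p. The pair was chosen with earlier results of these data known, for a similar mild fall of interferon genes with both mimics. The sample titles identified the arrays, and all probe sets were compared. Both cultures had received 100 ng/ml PMA for 2 days, which turns this human monocytic leukaemia line into macrophage-like cells, and then the mimic mixed with Lipofectamine RNAiMAX for 24 h. The other 4 arrays held cells handled in the same way with the mimics of let-7d-3p, let-7e-5p or miR-146a-5p, or with the negative control mimic (mimic NC). The study had selected these miRNAs from the plasma of patients with allergic eye disease and used the cells to ask what each of them does to gene expression. Each group was 1 transfected culture on 1 array, so no value had a replicate, the spread between repeats is unknown, and no test was made. The treatment text of the labels names let-7a-5p for every sample, so the groups rest on the titles alone, and the "2" in the title of the control is not explained.

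A miRNA is a short RNA that guides an Argonaute protein to mRNAs, mostly through pairing of a short stretch near its 5′ end, the seed, with the untranslated end of the message. The paired mRNA is translated less and is often broken down, so direct targets tend to be lower when a mimic, a synthetic duplex that stands in for the miRNA, is added. The miR-130 family, which shares its seed with other families, has been studied in blood cell formation, in TGF-beta signalling and in tumours, while miR-151a lies within the gene of the focal adhesion kinase PTK2 and has been studied mainly in cell migration.

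Levels are log2 signals, so a difference of 1 is 2-fold, and every difference is miR-130a-3p minus miR-151a-3p unless another is named. Having 1 array per group limits the precision, and a level near background is a further limit. Of 21448 probe sets 17709 carried 1 gene symbol, which gave 17687 genes. The median signal was 6.95 on the miR-130a-3p array and 6.94 on the miR-151a-3p array, within 6.92 to 6.95 over the series. With miR-130a-3p 13710 probe sets were above a background of 5.39, and with miR-151a-3p 13585. That background came from the 349 probe sets of olfactory receptors, which are mostly silent outside the nose, and is their 95th percentile. Markers of macrophages such as CD14, CD68 and CSF1R were above background on both arrays (10 of 10, median 14.51 with miR-130a-3p against 14.43 with miR-151a-3p). The label of the line reads lymphocyte-like, and markers of other cell types were in part above background. Of 17 markers of T and NK cells 7 were above it with miR-130a-3p against 9 with miR-151a-3p, such as GNLY, NCAM1, CD7 and CD3E, while CD3D, CD2, LCK and CD8A were under it on both arrays. Of 9 markers of B cells 5 were above it on either array, such as FCER2 and PAX5, while MS4A1 was under it. Of 13 markers of epithelial cells and fibroblasts 3 were above it on either array (KRT8, KRT19 and COL1A2), while EPCAM was under it. In a bulk sample fewer cells of a kind and less RNA per cell cannot be told apart, which holds for every group of genes below.

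With the brighter of both arrays above background, 14058 probe sets were compared. At least 2-fold higher with miR-130a-3p were 105 of them (0.747%), and 70 were at least 2-fold lower (0.498%). Past 3-fold there were 4 higher (0.0285%) and 1 lower (0.00711%). These counts rest on measured levels, which for a dim array lie in the background. Both arrays were above background for 49 of the 105, for 43 of the 70, for 0 of the 4 and for the 1. Over the 15 pairs that 6 arrays make, this one was in the middle at 2-fold and near the low end at 3-fold. It had 175 probe sets past 2-fold, against 76 to 453 in the other 14 pairs (median 168), and 5 past 3-fold, against 1 to 44 (median 13), with only 2 of the 14 below it. Among the 11784 named genes compared, 73 were at least 2-fold higher with miR-130a-3p (0.619%) and 53 at least 2-fold lower (0.45%), while the median difference of all of them was −0.02. At 1.5-fold the counts were 550 higher (4.67%) and 500 lower (4.24%). When a level under background was raised to it, so that the fold is a lower bound, 41 genes were higher (0.348%) and 36 lower (0.305%) at 2-fold, and 446 (3.78%) and 421 (3.57%) at 1.5-fold. Counts below are of measured differences, and the counts from background stand beside them for lists where they are not the same. The members nearest to the 2-fold line were PLEKHB1 (7.29 with miR-130a-3p against 6.29 with miR-151a-3p) just inside it and CCDC17 (7.12 with miR-130a-3p against 6.13 with miR-151a-3p) just outside, and, in the other direction, LOC100652768 (6.12 with miR-130a-3p against 7.12 with miR-151a-3p) inside and TMEM54 (6.43 with miR-130a-3p against 7.42 with miR-151a-3p) outside.

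**Figure D1:**
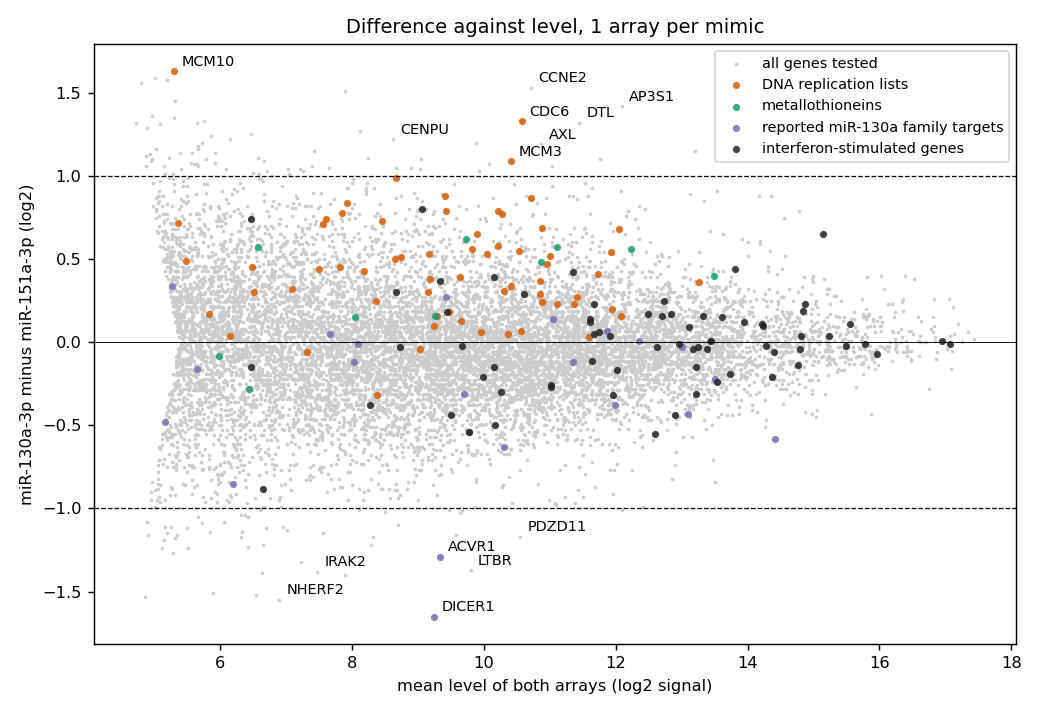
Each point is 1 of the 11784 named genes with the brighter array above background, by its mean level on both arrays (x axis, log2 signal) and its difference, miR-130a-3p minus miR-151a-3p (y axis, log2); broken lines mark 2-fold. Genes of DNA replication lie mostly above 0, interferon-stimulated genes lie on both sides of 0, and DICER1, at −1.65, is the lowest gene with both arrays above background.

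Several of the genes with a much higher level with miR-130a-3p act at the start of S phase. CCNE2, which encodes cyclin E2 and drives cells from G1 into S phase, had the largest difference of the genes higher with miR-130a-3p that were above background on both arrays. It read 11.49 with miR-130a-3p against 9.96 with miR-151a-3p, a 2.89-fold difference, and lay between 10.46 and 11.09 on the other 4 arrays. The miR-130a-3p array was thus above, and the miR-151a-3p array below, all other cultures. RIBC2, a protein of ciliary microtubules and no gene of S phase, came next and read 8.65 with miR-130a-3p against 7.14 with miR-151a-3p (2.85-fold), followed by AP3S1, described further on. CDC6, which loads the replicative helicase onto origins, read 11.24 with miR-130a-3p against 9.91 with miR-151a-3p (2.51-fold). The other arrays gave 9.88 to 10.39, so here the miR-130a-3p array alone stood apart. DTL, the substrate receptor of the ubiquitin ligase that destroys the licensing factor CDT1 in S phase, read 12.11 with miR-130a-3p against 10.79 with miR-151a-3p (2.5-fold), with 10.98 to 11.71 on the other arrays. WDR76, a chromatin protein, read 8.76 with miR-130a-3p against 7.49 with miR-151a-3p (2.41-fold).

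All 27 genes of origin licensing and of the replicative helicase were higher with miR-130a-3p than with miR-151a-3p, with a median difference of 0.49. Among all genes compared 45.9% were higher. Of the 27 genes 10 passed 1.5-fold and 3 passed 2-fold, and 0 passed either in the other direction. Counted from background, 9 passed 1.5-fold and 2 passed 2-fold, since CDT1 (5.73 with miR-130a-3p against 5.01 with miR-151a-3p) and MCM10 were dim with miR-151a-3p, and the median was 0.34. MCM3, a subunit of the MCM helicase ring, read 10.96 with miR-130a-3p against 9.87 with miR-151a-3p (2.13-fold), with the other arrays between 10.21 and 10.59. The other ring subunits differed less, by 0.68 for MCM4, 0.53 for MCM2, 0.47 for MCM5, 0.30 for MCM6 and 0.29 for MCM7. CDC45, which joins the ring to form the active helicase, read 9.17 with miR-130a-3p against 8.18 with miR-151a-3p, while MCM10, which helps to activate it, was dim (6.13 with miR-130a-3p against 4.50 with miR-151a-3p) and was at least 1.67-fold higher when counted from background. At the other end stood RECQL4, a helicase that acts in initiation (6.18 with miR-130a-3p against 6.14 with miR-151a-3p), and MCMBP, a binding protein of the MCM ring (11.61 with miR-130a-3p against 11.58 with miR-151a-3p), with nearly the same level on both arrays. In 20 of the 27 genes the miR-130a-3p array was the highest of all 6, and in 5 the miR-151a-3p array was the lowest, against 18.3% and 15.3% of all genes. With both arrays above background, 24 of the 27 genes were left and their median was 0.385.

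The promoters of 3 of the genes above are shown because they carry short matches to the motif of the E2F factors, which control genes of S phase. They are RefSeq sequences of build GRCh38.p14, from 250 bases before to 50 after the start of the gene, 5′ to 3′ on the strand of the gene, and the capitals mark the matches. The letters searched were TTTCCCGC, TTTCGCGC, TTTGCCGC and TTTGGCGC on both strands, overlaps included. CDC6 lies at chr17:40287629-40287928 on the plus strand, MCM3 at chr6:52284693-52284992 on the minus strand and DTL at chr1:212035498-212035797 on the plus strand.
CDC6: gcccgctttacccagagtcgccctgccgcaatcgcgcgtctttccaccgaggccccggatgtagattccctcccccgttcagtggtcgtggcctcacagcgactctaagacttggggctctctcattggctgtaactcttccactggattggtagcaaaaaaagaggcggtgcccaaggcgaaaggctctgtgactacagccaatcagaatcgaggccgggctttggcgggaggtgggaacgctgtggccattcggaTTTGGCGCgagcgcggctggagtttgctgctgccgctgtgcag
MCM3: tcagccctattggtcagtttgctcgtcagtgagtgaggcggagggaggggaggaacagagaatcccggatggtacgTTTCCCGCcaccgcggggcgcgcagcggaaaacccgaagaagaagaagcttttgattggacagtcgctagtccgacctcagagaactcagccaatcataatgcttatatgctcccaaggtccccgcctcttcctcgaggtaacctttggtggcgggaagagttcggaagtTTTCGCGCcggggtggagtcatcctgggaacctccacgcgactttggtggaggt
DTL: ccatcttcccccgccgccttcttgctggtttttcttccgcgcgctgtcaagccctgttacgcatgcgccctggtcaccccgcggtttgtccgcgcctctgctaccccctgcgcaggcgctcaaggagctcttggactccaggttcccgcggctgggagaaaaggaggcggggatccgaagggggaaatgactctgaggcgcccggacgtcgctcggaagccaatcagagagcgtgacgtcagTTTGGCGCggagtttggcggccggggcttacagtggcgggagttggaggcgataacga
Such a match was found in 3.31% of 35116 promoters and in 5.27% of the 9749 promoters of genes compared here that had a sequence. It was found in 11 of 23 licensing and helicase genes (47.8%), 10 of 33 genes of the replication fork (30.3%), 5 of 22 genes of the G1/S transition (22.7%) and 5 of 44 genes of mitosis (11.4%). A match is a description of the letters in this window and does not show that a factor binds there.

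Genes that act at the replication fork or supply nucleotides were higher in 34 of 37 cases, with a median difference of 0.41, and 8 of them passed 1.5-fold. CLSPN, an adaptor of the replication checkpoint, read 9.86 with miR-130a-3p against 8.98 with miR-151a-3p (1.84-fold). RRM2, the regulated subunit of ribonucleotide reductase, read 11.16 with miR-130a-3p against 10.29 with miR-151a-3p (1.83-fold), and CHAF1A, which places histones on new DNA, 8.35 with miR-130a-3p against 7.51 with miR-151a-3p (1.79-fold). The sliding clamp PCNA differed by 0.55 and thymidylate synthase, TYMS, by 0.54. The 3 genes that were not higher were RPA2, a subunit of the single-strand binding protein (8.22 with miR-130a-3p against 8.54 with miR-151a-3p), POLE2, a polymerase subunit (7.29 with miR-130a-3p against 7.35 with miR-151a-3p), and RFC2, a clamp loader subunit (9.02 with miR-130a-3p against 9.06 with miR-151a-3p).

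The control of the G1/S transition was more mixed, since 23 of 30 genes were higher and the median difference was 0.20 (mean 0.352). FBXO5, an inhibitor of the anaphase-promoting complex, read 9.42 with miR-130a-3p against 8.37 with miR-151a-3p (2.07-fold), and CDC25A, a phosphatase that activates cyclin-dependent kinases, 7.56 with miR-130a-3p against 6.52 with miR-151a-3p (2.06-fold). SKP2, which marks the protein of the inhibitor CDKN1B for destruction, differed by 0.94. The mRNA of CDKN1B, which is what the array reads, was at 7.49 with miR-130a-3p against 7.85 with miR-151a-3p. With let-7d-3p it was at 7.50, and a link to SKP2 was not tested. The inhibitor CDKN1A (p21), which is high in PMA-treated THP-1 cells, was level at 15.20 with miR-130a-3p against 15.19 with miR-151a-3p. The kinase CDK4 (13.46 with miR-130a-3p against 13.49 with miR-151a-3p) and the retinoblastoma gene RB1 (13.58 with miR-130a-3p against 13.49 with miR-151a-3p) were nearly level as well.

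Of 53 genes of mitosis, the kinetochore and the spindle 42 were higher with miR-130a-3p, with a median difference of 0.40, 18 of them past 1.5-fold and 2 past 2-fold. CENPU, a kinetochore protein, read 9.23 with miR-130a-3p against 8.01 with miR-151a-3p (2.33-fold), MELK, a kinase of dividing cells, 11.56 with miR-130a-3p against 10.50 with miR-151a-3p (2.08-fold), and ANLN, which builds the cleavage furrow, 12.01 with miR-130a-3p against 11.05 with miR-151a-3p (1.95-fold). The proliferation marker MKI67 read 11.43 with miR-130a-3p against 10.75 with miR-151a-3p, but it was higher still with let-7e-5p (11.48) and as low as 10.75 with mimic NC. Among the 11 genes that were lower were PTTG1, which encodes securin (7.91 with miR-130a-3p against 8.29 with miR-151a-3p), RACGAP1, a regulator of cytokinesis (9.39 with miR-130a-3p against 9.67 with miR-151a-3p), and UBE2C (6.44 with miR-130a-3p against 6.70 with miR-151a-3p) and CDC20 (12.28 with miR-130a-3p against 12.54 with miR-151a-3p), which act with the anaphase-promoting complex.

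DNA repair genes of homologous recombination and the Fanconi pathway split further, with 15 of 24 higher, 9 lower and a median of 0.115. EXO1, an exonuclease, read 10.94 with miR-130a-3p against 9.99 with miR-151a-3p (1.93-fold), XRCC2 9.81 with miR-130a-3p against 8.92 with miR-151a-3p (1.85-fold) and BRCA1 9.49 with miR-130a-3p against 8.64 with miR-151a-3p (1.80-fold). BARD1, the partner protein of BRCA1, ran the other way at 8.64 with miR-130a-3p against 9.29 with miR-151a-3p (1.57-fold lower), though the other 4 arrays spread from 8.21 to 9.60. FANCF (9.16 with miR-130a-3p against 9.69 with miR-151a-3p) and the kinase ATM (11.78 with miR-130a-3p against 12.24 with miR-151a-3p) were lower as well. Over all 5 lists together 54 of 171 genes of the cell cycle were at least 1.5-fold higher with miR-130a-3p (31.6%) and 1 was at least 1.5-fold lower (0.585%), beside 4.67% and 4.24% of all genes. They made up 9.82% of the 550 genes past 1.5-fold in that direction and 0.2% of the 500 in the other, and 8 of the 73 genes past 2-fold (10.96%). Counted from background, 53 of the 171 (31.0%) were at least 1.5-fold higher and 7 at least 2-fold.

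**Figure D2:**
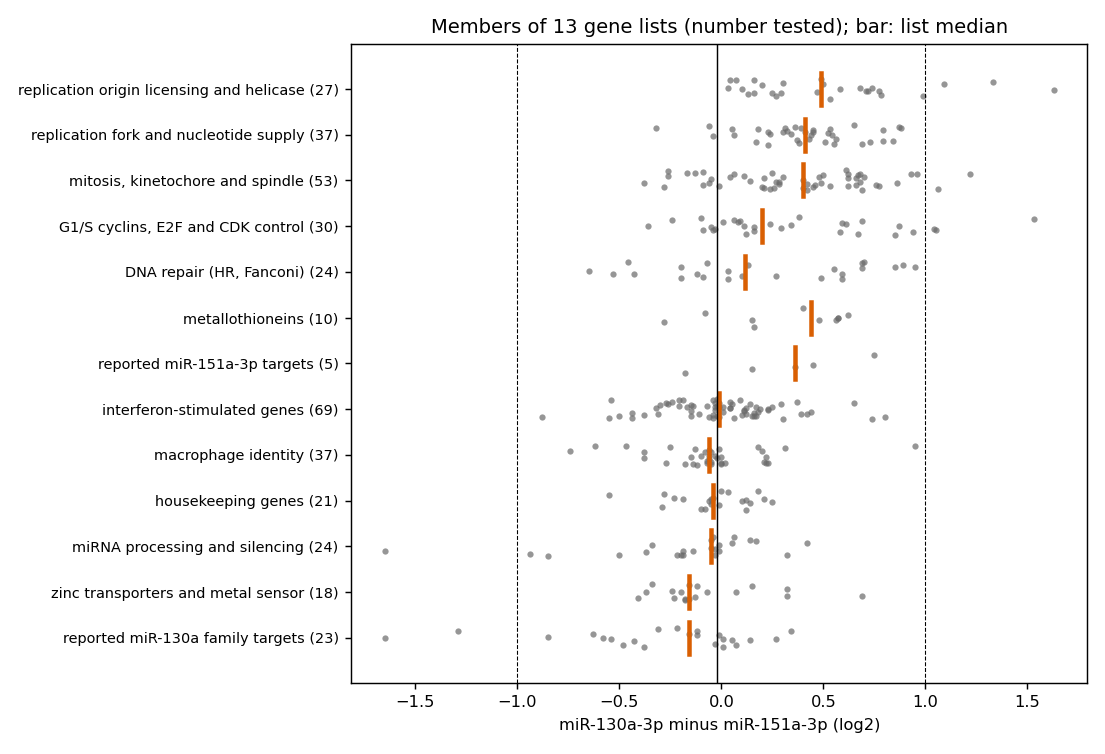
Each point is 1 member of a gene list and its difference, miR-130a-3p minus miR-151a-3p (x axis, log2); the bar is the list median, the number compared stands in brackets and broken lines mark 2-fold. The lists of replication and mitosis and the metallothioneins have medians from 0.40 to 0.49, the lists of interferon-stimulated, macrophage and housekeeping genes have medians near 0, and the reported targets of the miR-130a family have a median of −0.16.

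By list medians, most of the difference in the replication and mitosis lists lay on the miR-130a-3p array. Relative to the median of the other 4 arrays, the licensing list had a median of 0.44 with miR-130a-3p against −0.06 with miR-151a-3p, the fork list 0.35 with miR-130a-3p against −0.05 with miR-151a-3p, and the mitosis list 0.33 with miR-130a-3p against −0.04 with miR-151a-3p. Against mimic NC the medians of the licensing list were 0.44 for miR-130a-3p and −0.04 for miR-151a-3p, and both values share that 1 control array. Several genes departed from this: for CCNE2, MCM3, DTL, MELK and CENPU the miR-151a-3p array was also the lowest of the 6. It was the lowest in 5 of 27 licensing, 9 of 37 fork and 14 of 53 mitosis genes, beside 15.3% of all genes. In median level over all measured members, let-7e-5p was above miR-130a-3p for mitosis (9.15 against 9.03). It was below miR-130a-3p for licensing (9.17 against 9.43) and the fork (9.705 against 9.925). Over all 126 genes past 2-fold, 20 were outside the range of the other 4 arrays with miR-130a-3p only, 29 with miR-151a-3p only, 75 with both and 2 with neither. Among all genes compared these shares were 18.8%, 23.2%, 23.2% and 34.8%. A gene past 2-fold is by its selection likely to be outside that range on at least 1 array.

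**Figure D3:**
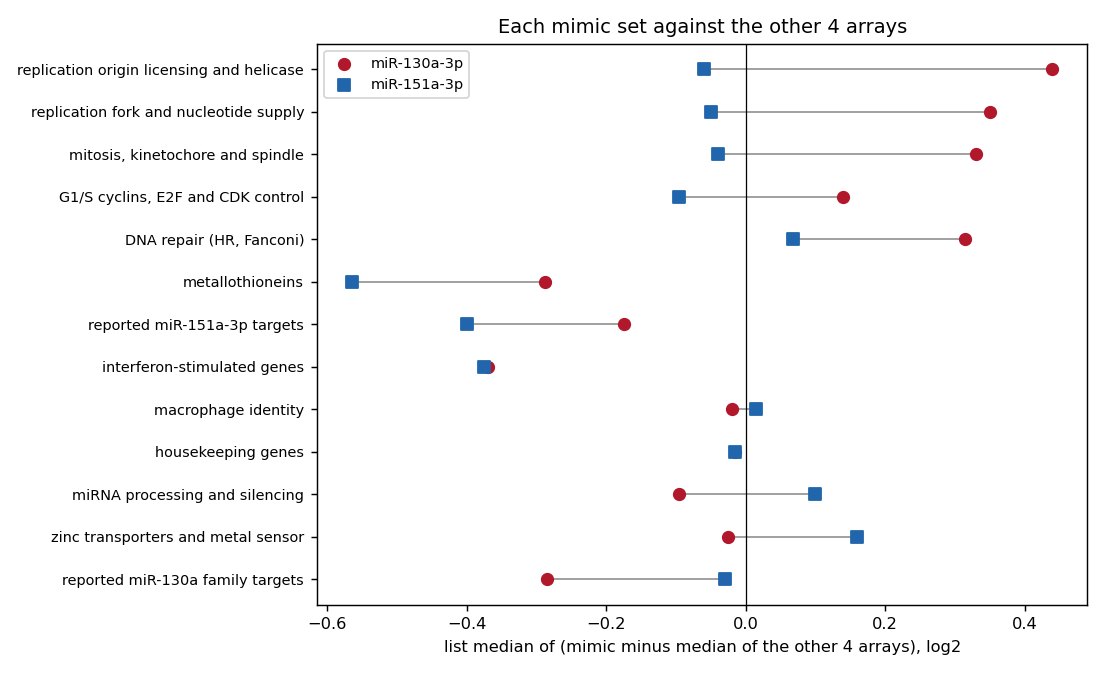
For each list, the median over its members of the level with miR-130a-3p (circles) or miR-151a-3p (squares) minus the median of the other 4 arrays (x axis, log2). The circles of the replication and mitosis lists lie at 0.33 to 0.44 and the squares near 0, the metallothioneins lie below 0 with either mimic and lowest with miR-151a-3p, and the symbols of the interferon-stimulated genes lie together at −0.37 and −0.38; for housekeeping genes both symbols coincide.

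At the other end of the scale stood DICER1, which encodes the enzyme that trims precursors into mature miRNAs and is a reported target of the miR-130a family. It read 8.43 with miR-130a-3p against 10.08 with miR-151a-3p, 3.14-fold lower with miR-130a-3p, and was the lowest of the 11158 genes with both arrays above background. On the other arrays let-7d-3p gave 9.73, mimic NC 9.70, miR-146a-5p 9.51 and let-7e-5p 8.90, so miR-130a-3p had the lowest and miR-151a-3p the highest level of the 6. ACVR1, a type I receptor for bone morphogenetic proteins and also a reported target, read 8.70 with miR-130a-3p against 9.99 with miR-151a-3p (2.45-fold lower), with 9.20 to 9.54 on the other arrays. Of its pathway relatives SMAD3 (9.53 with miR-130a-3p against 10.21 with miR-151a-3p) and SMAD6 (10.80 with miR-130a-3p against 11.41 with miR-151a-3p) were lower too, but the list of 31 TGF-beta and BMP genes had a median difference of 0.00, with 13 higher and 15 lower.

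Of 32 reported targets of miR-130a and its family 23 could be compared, and 16 were lower with miR-130a-3p and 7 higher, with a median of −0.16 (mean −0.30), or −0.12 when counted from background. Among all genes 52.6% were lower. At 1.5-fold 4 were lower and 0 higher, and at 2-fold 2 were lower. These 4 were DICER1, ACVR1, MET, a growth factor receptor (5.77 with miR-130a-3p against 6.62 with miR-151a-3p), and CSF1, the growth factor of macrophages (a difference of −0.63). RAB5A, a GTPase of early endosomes, read 14.13 with miR-130a-3p against 14.71 with miR-151a-3p (1.49-fold lower), below all other arrays, which gave 14.53 to 14.77. The miR-130a-3p array was the lowest of the 6 in 11 of the 23 genes and the miR-151a-3p array in 5, beside 15% and 15.3% of all genes. Other members of the list were low with both mimics. TSC1, an inhibitor of mTOR, read 11.12 with miR-130a-3p against 10.98 with miR-151a-3p, below the 11.46 to 11.66 of the other arrays, and PPARG, a nuclear receptor, read 11.91 with miR-130a-3p against 11.84 with miR-151a-3p against 12.30 with mimic NC. ZFPM2, a cofactor of GATA factors, was near background (5.44 with miR-130a-3p against 5.10 with miR-151a-3p), and the deubiquitinase CYLD was higher with miR-130a-3p (9.57 with miR-130a-3p against 9.30 with miR-151a-3p).

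Other parts of the silencing machinery were low beside DICER1. AGO4, an Argonaute protein, read 8.11 with miR-130a-3p against 9.05 with miR-151a-3p (1.92-fold lower), and TNRC6B, the scaffold through which Argonaute recruits deadenylases, 10.40 with miR-130a-3p against 11.25 with miR-151a-3p (1.80-fold lower). For both genes the miR-130a-3p array was the lowest and the miR-151a-3p array the highest of the 6. AGO2, the Argonaute that can slice, ran the other way, at 13.25 with miR-130a-3p against 12.93 with miR-151a-3p, the lowest of the 6. Of the 24 genes of this list 18 were lower and 6 higher, with a median of only −0.05 (mean −0.19), so the list as a whole was close to level and 3 members were far from it.

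Reported targets of miR-151a-3p were few, and 5 of 7 could be compared. Their median difference was 0.36 (0.255 with no filter), with 4 higher and 1 lower, beside 45.9% of all genes higher. ATP2A2, the calcium pump of the endoplasmic reticulum, read 14.93 with miR-130a-3p against 14.18 with miR-151a-3p (1.68-fold), where the other 4 arrays lay between 14.79 and 14.89. IL12RB2, a chain of the interleukin-12 receptor, read 10.40 with miR-130a-3p against 9.95 with miR-151a-3p, and TWIST1, a transcription factor, 7.97 with miR-130a-3p against 7.61 with miR-151a-3p. In these 3 genes the miR-151a-3p array was the lowest of the 6, which held for 15.3% of all genes. N4BP1 (13.99 with miR-130a-3p against 13.84 with miR-151a-3p) and STAT3 (11.92 with miR-130a-3p against 12.10 with miR-151a-3p) differed less.

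Some large differences came from 1 array alone, and others mainly from 1. AP3S1, a subunit of the adaptor that sorts cargo to lysosomes, read 12.81 with miR-130a-3p against 11.39 with miR-151a-3p (2.68-fold), and the other 4 arrays agreed within 12.77 to 12.92. TMX1, a thioredoxin-like protein of the endoplasmic reticulum, read 13.78 with miR-130a-3p against 12.63 with miR-151a-3p (2.22-fold) with 13.37 to 13.85 elsewhere. The low level was with miR-151a-3p in both. PDZD11, a scaffold protein, showed the reverse, with 9.97 with miR-130a-3p, 11.14 with miR-151a-3p (2.25-fold lower) and 11.11 to 11.25 elsewhere. SLC19A1, the reduced folate carrier, was above the other 4 arrays with both mimics and highest with miR-151a-3p: it read 8.97 with miR-130a-3p, 9.98 with miR-151a-3p and 8.47 to 8.69 elsewhere (2.01-fold lower with miR-130a-3p). CD320, the receptor that takes up cobalamin, was high with miR-130a-3p alone, at 8.0, against 6.85 with miR-151a-3p and 6.60 to 7.13 elsewhere (2.22-fold).

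**Figure D4:**
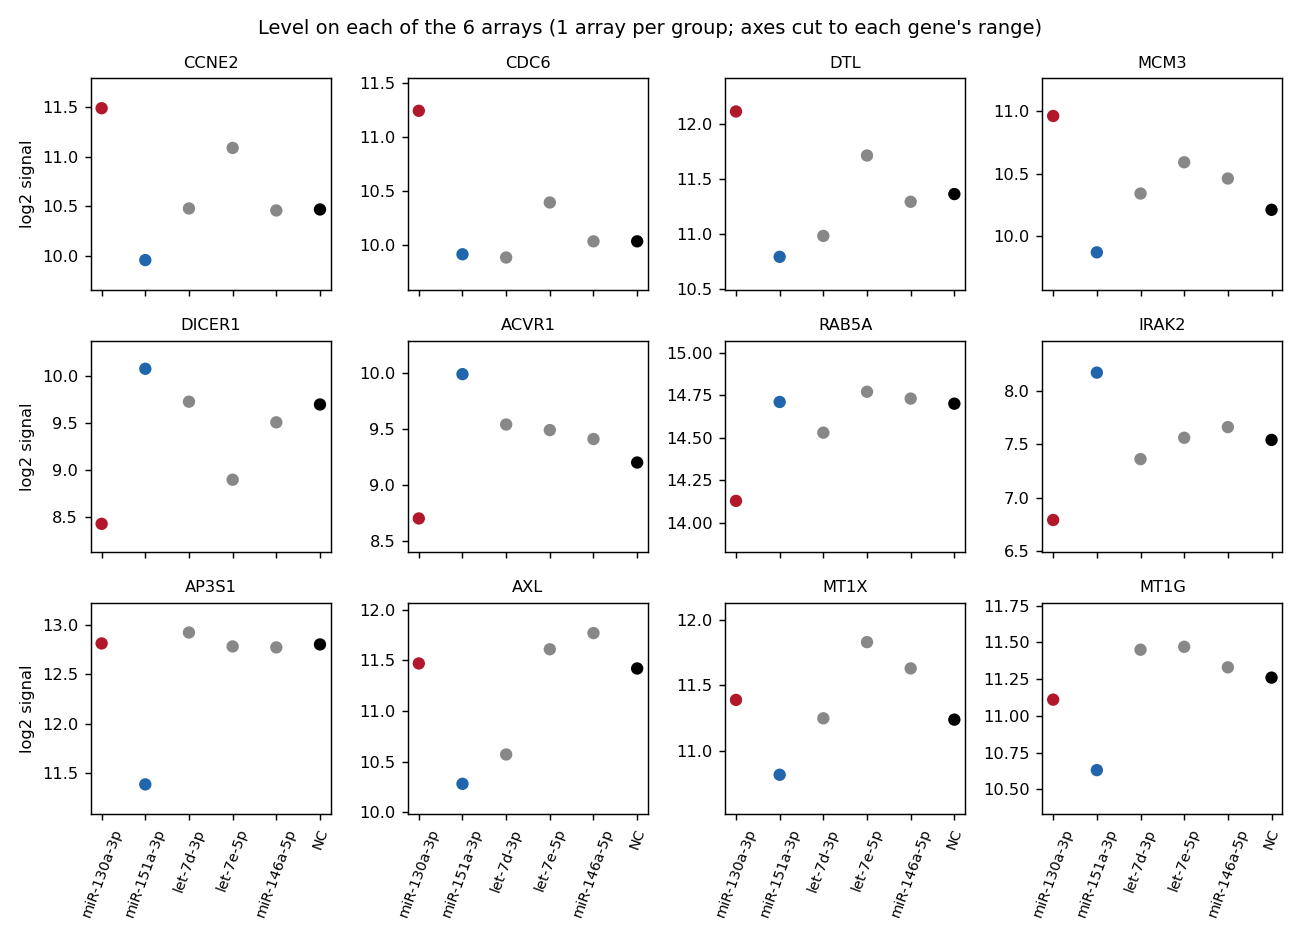
Level of 12 named genes (y axes, log2 signal, cut to the range of each gene) on each of the 6 arrays, 1 array per point: miR-130a-3p (red), miR-151a-3p (blue), the other mimics (grey) and mimic NC (black). CCNE2, CDC6, DTL and MCM3 are highest with miR-130a-3p, DICER1, ACVR1, RAB5A and IRAK2 are lowest with it, and AP3S1, AXL, MT1X and MT1G are lowest with miR-151a-3p.

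Genes of immune signalling were among the genes lower with miR-130a-3p. IRAK2, a kinase downstream of Toll-like and interleukin-1 receptors, read 6.79 with miR-130a-3p against 8.17 with miR-151a-3p (2.60-fold lower), and LTBR, the lymphotoxin beta receptor, 9.12 with miR-130a-3p against 10.49 with miR-151a-3p (2.58-fold lower). In both the other arrays lay between the 2 levels, from 7.36 to 7.66 for IRAK2 and from 9.63 to 10.10 for LTBR. The list of 22 NF-kB inflammatory genes did not follow them, with 8 higher, 14 lower and a median of −0.14 (mean −0.03). The adhesion molecule ICAM1 read 13.96 with miR-130a-3p against 13.31 with miR-151a-3p (1.57-fold higher), the lowest of the 6 with miR-151a-3p. IL1B, an early inflammatory cytokine, read 16.58 with miR-130a-3p against 16.18 with miR-151a-3p.

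A pair that acts together, the receptor AXL and its ligand GAS6, through which macrophages take up dying cells, was higher with miR-130a-3p. AXL read 11.47 with miR-130a-3p against 10.28 with miR-151a-3p (2.28-fold), and let-7d-3p was also low at 10.57 while the rest lay between 11.42 and 11.77. GAS6 read 8.18 with miR-130a-3p against 7.13 with miR-151a-3p (2.07-fold), the highest and the lowest of the 6. MERTK, the related receptor, was slightly lower (14.10 with miR-130a-3p against 14.33 with miR-151a-3p), and the 18 genes of Fc receptors and phagocytosis had a median of −0.01. Targets of p53 were split: PMAIP1 (NOXA), which promotes apoptosis, read 10.03 with miR-130a-3p against 9.08 with miR-151a-3p (1.93-fold higher), while PHLDA3, an inhibitor of AKT, read 6.99 with miR-130a-3p against 8.14 with miR-151a-3p (2.22-fold lower) and ZMAT3, an RNA-binding protein, 7.99 with miR-130a-3p against 9.01 with miR-151a-3p (2.03-fold lower). Their list had 13 genes higher and 15 lower (28 compared, median −0.01).

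Metallothioneins buffer zinc and copper inside the cell, and 8 of 10 of their genes had a higher level with miR-130a-3p, with a median difference of 0.44. Among all genes compared 45.9% were higher. MT1E read 10.04 with miR-130a-3p against 9.42 with miR-151a-3p (1.54-fold), the only member past 1.5-fold. MT1X read 11.39 with miR-130a-3p against 10.82 with miR-151a-3p, MT1H 6.87 with miR-130a-3p against 6.30 with miR-151a-3p, MT1B 12.51 with miR-130a-3p against 11.95 with miR-151a-3p, MT1G 11.11 with miR-130a-3p against 10.63 with miR-151a-3p, and MT2A 13.69 with miR-130a-3p against 13.29 with miR-151a-3p. MT1M and MT1F differed by 0.16 and 0.15, while MT3 (6.31 with miR-130a-3p against 6.59 with miR-151a-3p) and MT4 (5.95 with miR-130a-3p against 6.03 with miR-151a-3p), which are not typical of macrophages, were not higher. The difference came mainly from the miR-151a-3p array, which was the lowest of the 6 in 8 of the 10 genes, beside 15.3% of all genes. Relative to the median of the other 4 arrays, the list was at −0.29 with miR-130a-3p against −0.57 with miR-151a-3p, and let-7e-5p and miR-146a-5p had high levels such as 14.57 and 14.31 for MT2A. The coding sequences of this family are nearly alike, so probes may read more than 1 of its members and the genes cannot be counted as separate.

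Metallothionein genes are switched on by the zinc sensor MTF1 through metal response elements, so the promoters of MT2A and MT1H are shown, again from RefSeq, build GRCh38.p14, with the matches in capitals. The letters searched were TGCACNC and TGCGCNC on both strands. MT2A lies at chr16:56608334-56608633 and MT1H at chr16:56669564-56669863, both on the plus strand.
MT2A: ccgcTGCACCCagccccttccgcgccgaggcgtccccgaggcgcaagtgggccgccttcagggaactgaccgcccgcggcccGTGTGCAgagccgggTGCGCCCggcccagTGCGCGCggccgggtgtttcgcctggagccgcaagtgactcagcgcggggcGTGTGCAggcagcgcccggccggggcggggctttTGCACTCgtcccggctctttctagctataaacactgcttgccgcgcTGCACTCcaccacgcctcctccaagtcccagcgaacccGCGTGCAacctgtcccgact
MT1H: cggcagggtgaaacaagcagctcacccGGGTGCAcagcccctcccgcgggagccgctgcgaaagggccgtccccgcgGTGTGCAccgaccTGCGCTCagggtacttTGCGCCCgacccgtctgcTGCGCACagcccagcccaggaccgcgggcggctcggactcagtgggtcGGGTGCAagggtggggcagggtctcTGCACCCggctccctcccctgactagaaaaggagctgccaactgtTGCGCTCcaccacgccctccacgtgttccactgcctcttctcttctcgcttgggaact
Each holds 8 matches. More than 3 matches were found in 0.601% of all promoters and in 3 of the 5 metallothioneins with a sequence (60%). MTF1 itself was slightly lower with miR-130a-3p (11.86 with miR-130a-3p against 12.04 with miR-151a-3p). Of 18 genes of zinc transport and sensing 13 were lower and 5 higher, with a median of −0.16. SLC39A10, an importer, stood out at 11.88 with miR-130a-3p against 11.19 with miR-151a-3p (1.61-fold), with 11.80 to 11.87 elsewhere, while the importer SLC39A1 read 10.11 with miR-130a-3p against 10.52 with miR-151a-3p and the exporter SLC30A1 11.18 with miR-130a-3p against 11.36 with miR-151a-3p.

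Interferon-stimulated genes hardly told the arrays apart. The pair had been chosen for a similar mild fall of these genes, so this small difference is only a description. Of 74 genes in the list 69 were compared, 33 were higher with miR-130a-3p and 36 lower, and the median difference was −0.01. At 2-fold 0 passed, and at 1.5-fold 3 were higher and 1 lower, beside 4.67% and 4.24% of all genes. That both mimics had low levels of these genes was known when the arrays were paired, so their level against mimic NC is only a description: 63 of 69 were below it with miR-130a-3p (median −0.29) and 65 with miR-151a-3p (median −0.23), and both counts share the control array. Among all genes 47.2% and 44% were below mimic NC. The levels of CXCL10 were 13.06 with miR-130a-3p, 13.37 with miR-151a-3p and 13.59 with mimic NC, and those of its relative CXCL11 were 9.28 with miR-130a-3p, 9.72 with miR-151a-3p and 9.95 with mimic NC. TLR3, a receptor of double-stranded RNA, read 7.66 with miR-130a-3p, 7.80 with miR-151a-3p and 8.32 with mimic NC. Of its cytoplasmic counterparts, RIGI read 12.95 with miR-130a-3p, 13.08 with miR-151a-3p and 13.30 with mimic NC, and IFIH1 13.54 with miR-130a-3p, 13.49 with miR-151a-3p and 13.96 with mimic NC.

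Differences past 1.5-fold were no more common in this list than among all genes, and the largest differences are given here as a description. The chemokine CCL8 read 9.47 with miR-130a-3p against 8.67 with miR-151a-3p (1.74-fold), IRF7, the factor that amplifies the interferon response, 6.84 with miR-130a-3p against 6.10 with miR-151a-3p (1.67-fold), and the DNA sensor IFI16 15.47 with miR-130a-3p against 14.82 with miR-151a-3p (1.57-fold). The largest differences in the other direction were those of IDO1, which breaks down tryptophan (6.22 with miR-130a-3p against 7.10 with miR-151a-3p, 1.84-fold lower), the guanylate-binding proteins GBP3 (12.32 with miR-130a-3p against 12.87 with miR-151a-3p) and GBP4 (9.93 with miR-130a-3p against 10.43 with miR-151a-3p), and the transcription factor IRF1 (9.51 with miR-130a-3p against 10.05 with miR-151a-3p). IRF1 is also on the list of reported miR-130a targets. With miR-130a-3p it was the lowest of the 6, but let-7d-3p was close to that at 9.69. Mimic NC gave 10.08, let-7e-5p 10.85 and miR-146a-5p 10.92. Of the 55 promoters of this list with a sequence 36 (65.5%) held the core of the interferon response element (GAAA, any 2 bases, GAAA) on either strand, beside 3.57% of all promoters.

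**Figure D5:**
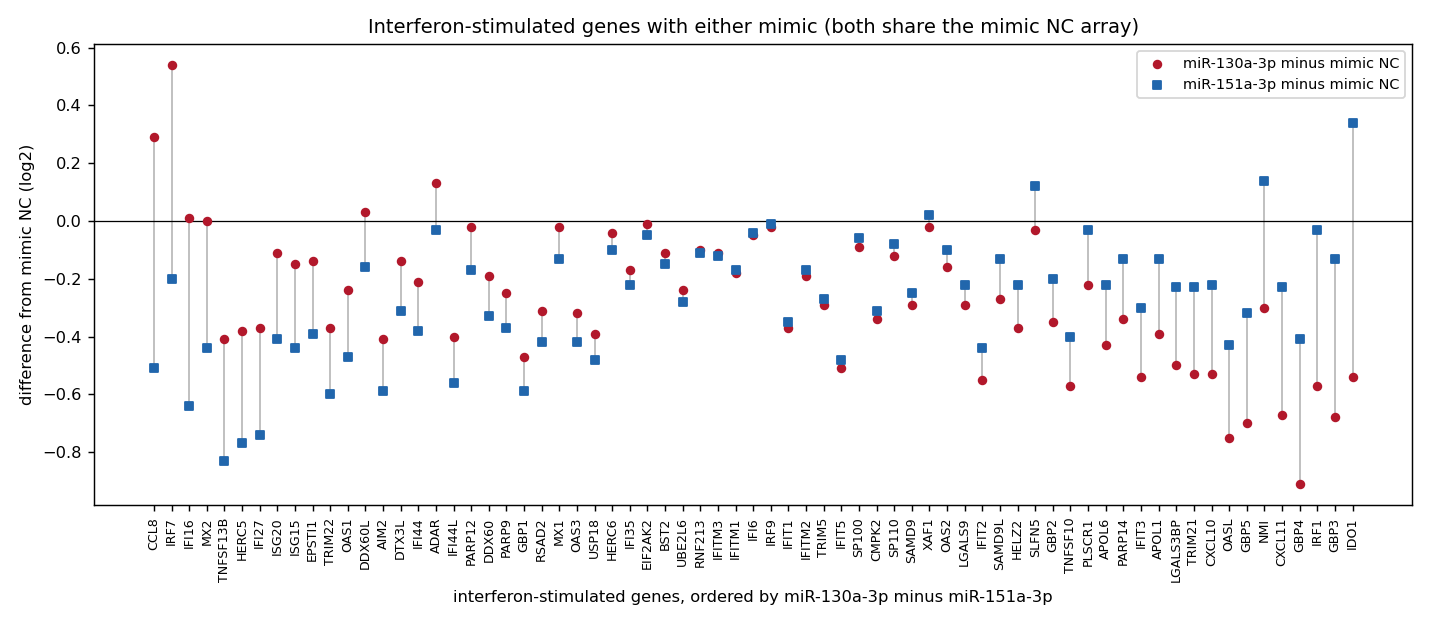
For each of the 69 interferon-stimulated genes compared (x axis, ordered by their difference, miR-130a-3p minus miR-151a-3p), the level with miR-130a-3p (circles) and with miR-151a-3p (squares) minus mimic NC (y axis, log2), joined by a line. Most symbols lie below 0 with either mimic, which share the control array, and the circles lie above the squares at the left end (CCL8, IRF7, IFI16) and below them at the right end (GBP3, IRF1, IDO1).

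Genes that define the macrophage state were close to level. Of 37 compared 9 were higher with miR-130a-3p and 25 lower, with a median of −0.06. At 1.5-fold 1 was higher and 2 lower, or 0 and 1 when counted from background. FCGR1A, the high-affinity Fc receptor, read 13.77 with miR-130a-3p against 13.46 with miR-151a-3p, MAF, a factor of resident macrophages, 10.29 with miR-130a-3p against 10.91 with miR-151a-3p, and the lipid carrier APOE 13.11 with miR-130a-3p against 13.58 with miR-151a-3p. F13A1, the coagulation factor subunit of macrophages, was dim with miR-130a-3p (5.21) and at least 1.48-fold higher with miR-151a-3p (5.95). CYP27A1, a sterol hydroxylase, differed little between both arrays (6.51 with miR-130a-3p against 6.73 with miR-151a-3p), though the remaining arrays were at 5.07 to 6.13. The 21 housekeeping genes had a median of −0.04 with 8 higher and 12 lower, and the 20 ribosomal protein genes a median of 0.025. Among markers of T and NK cells 3 of 9 compared were higher with miR-130a-3p and 6 lower, and the granule protein NKG7 read 7.78 with miR-130a-3p against 6.75 with miR-151a-3p.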

How the data were processed

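Total RNA of 6 THP-1 cultures was hybridised to Human Clariom S arrays of Affymetrix (1 per group), and titles gave the groups. The labels give Trizol for the extraction, while the methods of the study give the RNeasy kit. For each probe set the deposited table holds a log2 signal with 2 decimals. According to the processing notes of the submitters, it was made by RMA in Transcriptome Analysis Console 4.0. RMA subtracts background, brings all arrays to 1 distribution and summarises probes, so a shift of most genes at once would not be seen. Its settings and the genome build: not given in the sources used here.

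The difference of log2 signals, miR-130a-3p minus miR-151a-3p, was computed for each probe set with Python 3.11.15, pandas 2.3.3, numpy 2.4.6 and statsmodels 0.14.6. Several probe sets of 1 gene were averaged (20 genes). All 17709 symbols matched RefSeq genes by Entrez identifier. A probe set was compared when its brighter array was above 5.39, and counts, medians and ranks used measured differences. Where the dimmer array was under this level, the fold of a named gene was counted from this level and is called "at least", and counts and medians were also made in this way. With 1 array per group there was no replicate error and no test, and lists are described by counts and medians beside those of all genes. The side of a difference was read from the range and the median of the other 4 arrays. The code was tested on simulated data with known differences.

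The pair of arrays, the 39 gene lists and the rule for named genes were chosen with earlier results of these data known. Lists came from general knowledge of the pathways, reported targets included, and share some members. Named were the 15 highest and 15 lowest differences with both arrays above background, up to 5 each way with only the brighter array above it, the top 3 and bottom 3 genes of every list in the text, metallothioneins, reported targets, and CXCL10, CXCL11, TLR3, RIGI, IFIH1, DICER1, AP3S1, CDC6, CDC45, CCNE2 and CYP27A1. The text gives a selection of these. Some others were picked after their values were seen, such as the remaining MCM subunits, PCNA, TYMS, SKP2, CDK4, RB1, MKI67, CDC20, MERTK and IL1B.

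Alternatives were fold thresholds of 1.5 and 3, no filter, a filter on both arrays, median centring, a second quantile normalization, a lowess trend (span 0.3) taken off, 32 added to linear signals as a pseudocount, and the mean over list members. Raising the dimmer array to background was added after seeing the data.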

Additional observations from a re-analysis of the deposited data

Results flagged for a closer look

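In 4 of 11045 genes with the arrays of miR-130a-3p, miR-151a-3p and mimic NC all above background, both mimics lay on opposite sides of mimic NC by at least 1.5-fold each. The difference was not tested, since there was 1 array per group, and both sides are measured from the same control array. NHERF2, a scaffold of membrane transporters, read 6.13 with miR-130a-3p, 7.68 with miR-151a-3p and 7.0 with mimic NC (difference −1.55). HGD, an enzyme of tyrosine breakdown, read 5.95 with miR-130a-3p, 7.34 with miR-151a-3p and 6.54 with mimic NC (−1.39), and IRAK2, the signalling kinase, 6.79 with miR-130a-3p, 8.17 with miR-151a-3p and 7.54 with mimic NC (−1.38). These 3 were lower with miR-130a-3p. CENPU, the kinetochore gene, was the only one that was higher, at 9.23 with miR-130a-3p, 8.01 with miR-151a-3p and 8.63 with mimic NC (1.22). For NHERF2, HGD and CENPU the levels with let-7e-5p (6.27, 6.25 and 9.15) were close to those with miR-130a-3p. For HGD the level with miR-146a-5p (6.12) was close to it as well.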

How the results depend on the processing

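The 105 probe sets at least 2-fold higher with miR-130a-3p and the 70 at least 2-fold lower became 4 and 1 at 3-fold, 700 and 621 at 1.5-fold, 211 and 152 with no filter, 49 and 43 with both arrays above background, 52 and 45 with the dimmer array raised to background (an alternative chosen after seeing the data), and 19 and 18 with a pseudocount of 32. Repeated quantile normalization, median centring and removal of a lowess trend kept both counts within 1.5 times. Of 176 medians of 22 lists under 8 settings 168 moved by no more than 0.1 and 8 by more. In 3 cases a median near 0 changed sign: that of interferon-stimulated genes, −0.01, was 0.0075 with repeated quantile normalization and 0.0056 with the lowess trend removed, and that of p53 targets, −0.01, was 0.0016 with repeated quantile normalization. The 8 were 0.255 for reported miR-151a-3p targets with no filter, 0.385 for licensing genes with both arrays above background and 0.343 with the dimmer array raised to it, and, as means, 0.35 for G1/S genes, 0.315 for metallothioneins, −0.19 for miRNA processing, −0.0291 for NF-kB genes and −0.30 for reported miR-130a targets. Genes outside the range of the other 4 arrays with miR-130a-3p only, miR-151a-3p only, both or neither numbered 259, 351, 396 and 44 at 1.5-fold, 0, 0, 3 and 0 at 3-fold, 12, 13, 45 and 2 at 2-fold with both arrays above background, and 13, 13, 49 and 2 at 2-fold with the dimmer array raised to it. The median of all genes stayed between −0.03 and 0.00. No paired analysis was possible because the groups hold 1 array each, and no array could be left out of a group for the same reason. Every difference therefore mixes the mimics with whatever else differed between the cultures, transfections and arrays, and these cannot be told apart.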

Other observations

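Groups of metabolic genes gave smaller differences. Of 18 folate and one-carbon genes 14 were higher with miR-130a-3p and 4 lower, with a median difference of 0.19. The share of all genes that were higher was 45.9%. PAICS, an enzyme of purine synthesis, read 14.31 with miR-130a-3p against 13.71 with miR-151a-3p (1.52-fold), with 13.74 to 13.89 elsewhere, and GGH, which trims folate chains, 7.83 with miR-130a-3p against 7.33 with miR-151a-3p. ALDH1L1, a folate dehydrogenase, read 6.11 and was at least 1.65-fold higher than with miR-151a-3p (5.03). At 2-fold 1 gene was higher and 1 lower, or 0 and 1 when counted from background. The lower one, at −1.01, was the folate carrier SLC19A1 described above. The 24 genes of glycolysis and hypoxia had a median of 0.02, but PGAM1, a glycolytic mutase, read 14.62 with miR-130a-3p against 13.74 with miR-151a-3p (1.84-fold), and HIF1A, the hypoxia factor, 14.49 with miR-130a-3p against 13.90 with miR-151a-3p (1.51-fold). For both, the 4 other arrays were close to miR-130a-3p, at 14.31 to 14.69 and 14.41 to 14.49. PDK4, which holds pyruvate back from the mitochondrion, read 7.50 with miR-130a-3p against 6.69 with miR-151a-3p (1.75-fold), against 7.60 to 7.84 elsewhere.

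Lists that leaned slightly the other way were those of autophagy and the respiratory chain, beside 52.6% of all genes lower with miR-130a-3p. Of 36 genes of mTOR, autophagy and lysosome control 24 were lower with miR-130a-3p, with a median of −0.13, and the miR-151a-3p array was the highest of the 6 in 17 of them, beside 24.3% of all genes. ATG2A, a lipid transfer protein of the autophagosome, read 8.17 with miR-130a-3p against 8.91 with miR-151a-3p (1.67-fold lower), and ATG5 10.20 with miR-130a-3p against 10.70 with miR-151a-3p. Of 29 respiratory chain genes 19 were lower and 7 higher (median −0.10). Of 7 markers of undifferentiated myeloid cells 6 were lower with miR-130a-3p (median −0.24), led by the granule protease PRTN3 (9.84 with miR-130a-3p against 10.45 with miR-151a-3p).

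Genes of the stress response had a median of 0.07, with ATF3, a stress-induced factor, at 11.14 with miR-130a-3p against 11.93 with miR-151a-3p (1.73-fold lower) and at 11.77 to 12.50 elsewhere. Of 2261 probe sets without a symbol 32 were at least 2-fold higher with miR-130a-3p and 17 at least 2-fold lower. Of all 14058 probe sets compared these were 105 (0.747%) and 70 (0.498%). The counts are of measured differences, which for a dim array lie in the background.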
